A study of Mus musculus with 6 samples.

Results

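The signalling genes that act directly behind the antigen receptors of lymphocytes were examined in H22 tumours. They comprised 8 genes, namely Lck, Zap70, Lat, Lcp2, Ptprc, Syk, Plcg1 and Ubash3a, chosen by gene symbol for their place in the pathway. The choice was made with earlier results of these data known, so counts among the 8 are a description. All 8 were found among the 21720 symbols of the expression table. H22 is a mouse hepatocellular carcinoma cell line, and the tumours were grown under the skin of female, wild-type BALB/c mice. The control group received 0.5% carboxymethyl cellulose sodium and the luteolin group received 200 mg/kg luteolin, a plant flavonoid, each by gavage in 0.2 mL daily over 21 days from a tumour volume of about 50 mm3. Tumour RNA was sequenced in 3 libraries per group, numbered 1 to 3 in each group. Neither the labels nor the methods say that each library came from a separate mouse, so the p values measure only the spread between these libraries.

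When a T-cell receptor meets its antigen, the kinase Lck phosphorylates the receptor's CD3 and zeta chains, and the kinase Zap70 binds there. Zap70 then phosphorylates the adaptors Lat and Lcp2 (also called SLP-76), on which the phospholipase Plcg1 assembles and starts the calcium and Ras signals. Ptprc (CD45) is a phosphatase of all nucleated blood cells that keeps Lck ready for use, and Ubash3a (also called STS-2) dampens the signal in T cells. Syk is the relative of Zap70 that does the same work behind the B-cell receptor and behind Fc and C-type lectin receptors of myeloid cells. Lck, Zap70 and Ubash3a are thus mostly genes of T cells and their kin. Lat is shared by T cells and their kin, mast cells and platelets, Lcp2 by these and other myeloid cells, and Plcg1 is used by most cell types.

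Total counts were between 61081637 and 80442954 per library, and luteolin replicate 2 was the deepest. Skin genes also differed between the groups and were highest in this library. The keratins Krt14 and Krt5 had 0 counts in all 3 control libraries, and Krt14 had 157, 2439 and 4.33 CPM (read counts scaled to a common, TMM-normalized library total) in luteolin replicates 1, 2 and 3, where Krt5 had 50.4, 1883 and 4.74 CPM. The keratinocyte list of 7 genes summed to 176 to 189 CPM in the control group, nearly all of it from Dsp (172 to 186 CPM), and to 479, 8377 and 156 CPM in the luteolin libraries, and the part of skin in the results was not tested. GC content was related to each library's deviation from the 6-library mean across genes (Spearman's rho from -0.53 to 0.44), with both signs in each group. Of the genes that mark hepatocytes and hepatoma, Krt18 had 193 to 266 CPM and Afp 32.7 to 66.7 CPM over all libraries, whereas Alb ranged from 0.868 to 133 CPM and Hnf4a and Ttr did not exceed 0.392 CPM in any library.

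Promoters of Zap70, Lck and Lcp2 are shown first, beside that of Plcg1, the gene of the 8 that was not up-regulated. Each is the window of 250 bases before a start site in RefSeq (GRCm38.p6), written 5′ to 3′ on the strand of the gene. Capitals mark any match, on either strand, to 1 of 6 motifs, and no matches overlapped in these windows. The ETS core was searched as GGAAGT and the RUNX core as TGTGGT. The E-box was searched as CAGGTG, and the TATA box as TATAAA. The cAMP response element was searched as TGACGTCA, and the GC box as GGGCGG. The windows lie at chr1:36761548-36761797 (plus strand) for the first of 3 Zap70 starts, at chr4:129573642-129573891 (minus strand) for the distal and at chr4:129558373-129558622 (minus strand) for the proximal Lck start, at chr11:34046678-34046927 (plus strand) for Lcp2 and at chr2:160731060-160731309 (plus strand) for Plcg1.
Zap70 promoter: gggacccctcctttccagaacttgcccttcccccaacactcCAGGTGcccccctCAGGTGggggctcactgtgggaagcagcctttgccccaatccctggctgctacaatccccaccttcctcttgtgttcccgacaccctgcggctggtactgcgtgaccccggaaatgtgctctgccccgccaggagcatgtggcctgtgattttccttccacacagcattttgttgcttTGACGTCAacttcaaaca
Lck distal promoter: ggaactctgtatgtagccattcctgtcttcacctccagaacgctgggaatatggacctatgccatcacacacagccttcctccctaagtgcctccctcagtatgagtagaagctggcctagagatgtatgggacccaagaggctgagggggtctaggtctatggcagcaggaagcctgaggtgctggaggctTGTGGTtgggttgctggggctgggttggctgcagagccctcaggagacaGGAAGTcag
Lck proximal promoter: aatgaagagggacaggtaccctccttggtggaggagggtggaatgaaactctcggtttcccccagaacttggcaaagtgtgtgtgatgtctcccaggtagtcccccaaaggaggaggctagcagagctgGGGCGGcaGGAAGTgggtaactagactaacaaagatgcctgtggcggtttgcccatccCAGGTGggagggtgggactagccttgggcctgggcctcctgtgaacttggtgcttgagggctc
Lcp2 promoter: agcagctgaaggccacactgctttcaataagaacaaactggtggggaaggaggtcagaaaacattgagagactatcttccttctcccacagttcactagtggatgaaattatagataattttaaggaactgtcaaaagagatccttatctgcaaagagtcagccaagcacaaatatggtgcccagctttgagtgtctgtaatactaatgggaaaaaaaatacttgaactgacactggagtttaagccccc
Plcg1 promoter: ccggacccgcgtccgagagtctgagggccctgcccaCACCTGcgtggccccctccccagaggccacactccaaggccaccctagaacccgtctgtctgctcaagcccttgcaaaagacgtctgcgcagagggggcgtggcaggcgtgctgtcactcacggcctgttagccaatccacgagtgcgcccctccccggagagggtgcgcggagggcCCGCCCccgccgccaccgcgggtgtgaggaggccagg

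The Lck windows held an ETS core at both starts, with a RUNX match at the distal start and an E-box and a GC box at the proximal one. The window of the first Zap70 start held a pair of E-boxes and the cAMP response element, a match found in 1.55% of the 32851 RefSeq windows of the same length. The windows of Zap70 starts 2 and 3, not shown, held no cAMP response element. That of start 2 held an ETS core and a RUNX match. The Lcp2 window held none of the 6 motifs and had 41.2% GC, against a median of 52.4% over all windows. The Plcg1 window held an E-box and a GC box and had 71.2% GC. Of the 13 windows of the 8 genes, 5 held the ETS core (at Lck, Zap70 and Ptprc) and 6 the E-box (at Lck, Zap70, Syk and Plcg1), where 19.7% and 17.2% of all windows hold them. The RUNX match was found in 2 of the 13 windows, the GC box in 2 and the TATA box in 1, against 14%, 32.7% and 12.4% of all windows. The cAMP response element was found in 1 of the 13, against 1.55%. Some genes have more than 1 window, and the 2 Ptprc windows overlap and share 1 ETS match, so the 13 windows are not independent. A match describes these letters and does not show a binding site.

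To see whether luteolin treatment changed these genes, counts were compared between the groups with edgeR over all 14963 genes tested. Luteolin was accompanied by up-regulation of 7 of the 8 genes at the study's threshold (unadjusted p under 0.05 with a fold change over 2), where 11.3% of all genes tested passed. Only Plcg1 was not among them. At a Benjamini-Hochberg adjusted p under 0.05 over all genes, 3 of the 8 rose, namely Zap70, Lcp2 and Syk, where 1.34% of all genes did. None of the 8 was lower at that threshold (0.187% of all genes tested) or at the study's (1.52%), and the luteolin libraries lay below all controls for 0 of the 8 (12.8% of all genes tested). The median log2 fold change was 1.58 for the 8 genes and -0.01 for all genes tested. For 6 of the 8 genes every luteolin library lay above every control library, as for 15.9% of all genes tested, with Plcg1 and Ubash3a as the exceptions. In bulk tumour RNA, a change in the number of cells that express a gene and a change in the RNA per cell cannot be told apart.

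**Figure D1:**
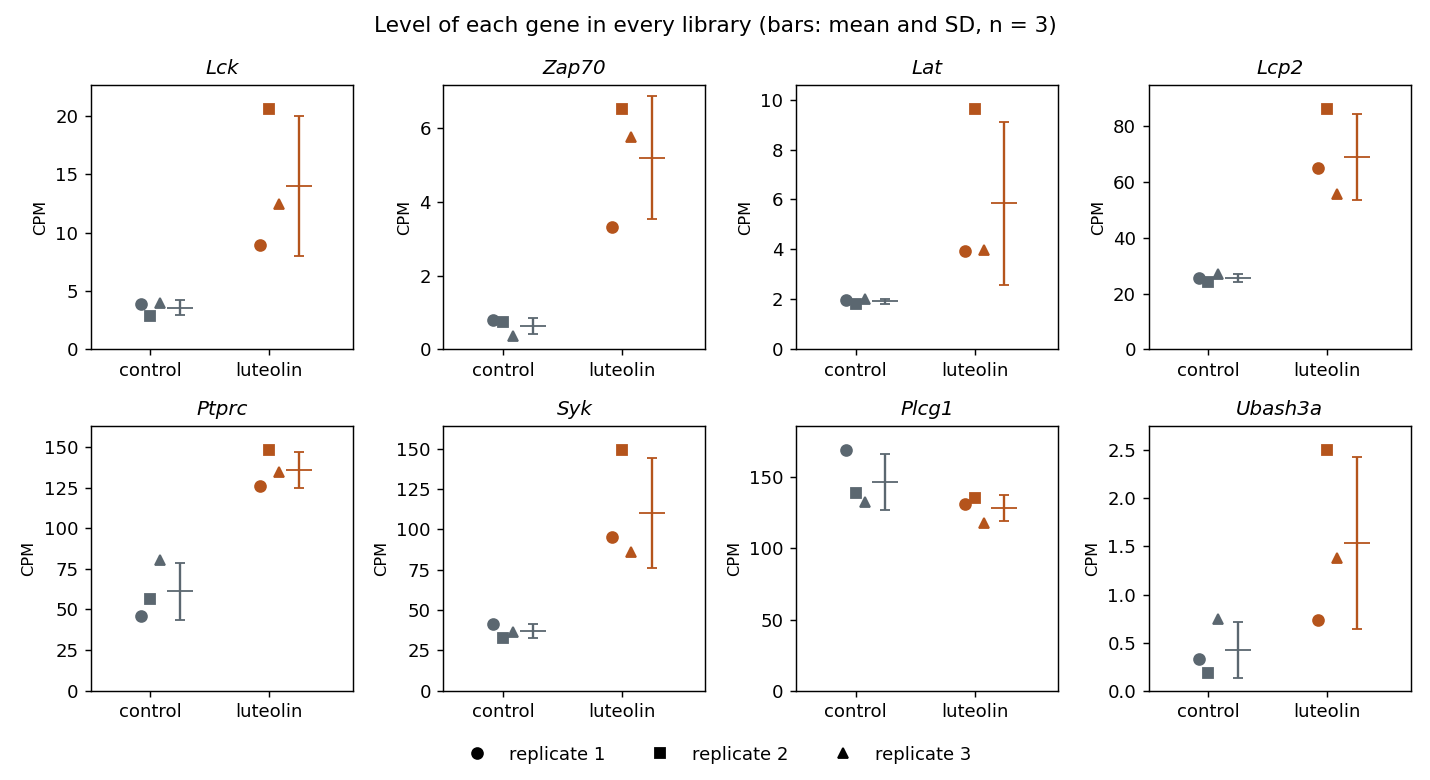
Level of each of the 8 genes in CPM of the TMM-normalized library total (linear axes from 0), with 1 point per library and the group mean and SD (n = 3) beside the points. The luteolin points lie above all control points except for Plcg1, where they overlap, and Ubash3a, where luteolin replicate 1 (0.735 CPM) lies just under control replicate 3 (0.744 CPM).

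Among the kinases, Zap70 had the largest fold change. Zap70 had 0.787, 0.741 and 0.372 CPM in control replicates 1, 2 and 3 and 3.31, 6.51 and 5.76 CPM in luteolin replicates 1, 2 and 3. The lowest luteolin library was above the highest control library, and the control level rested on 24 to 55 counts per library. The log2 fold change of Zap70 was 3.03 with a standard error of 0.50 (Benjamini-Hochberg adjusted p = 0.0437 in edgeR). With any 1 library omitted it lay between 2.76 and 3.27, with an adjusted p between 0.0446 and 0.224 in edgeR. The adjusted p was 0.0656 without luteolin replicate 3 and 0.0516 with no filter on low counts.

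Lck, the kinase that opens the cascade, had 3.92, 2.83 and 3.95 CPM in the control libraries and 8.93, 20.6 and 12.5 CPM in the luteolin libraries. The groups did not overlap, and luteolin replicate 2 was the highest. Lck had a log2 fold change of 1.97 (standard error 0.38), which met the study's threshold but not the adjusted one (adjusted p = 0.0620 in the same edgeR test). It was 1.60 without luteolin replicate 2.

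Syk was far more abundant than Zap70 in both groups, with 41.6, 32.9 and 36.5 CPM in the control libraries and 95.4, 149 and 86.0 CPM in the luteolin libraries. All 3 luteolin libraries were at least as high as 86.0 CPM and no control library passed 41.6 CPM. Syk rose from 37.0 ± 4.40 to 110 ± 34.0 CPM (SD, n = 3 each). This was 1.57 on the log2 scale, with a standard error of 0.24 and an adjusted p of 0.0403 in edgeR. Without luteolin replicate 2 its log2 fold change was 1.31 (adjusted p = 0.0307 in edgeR). With any 1 library omitted the adjusted p of Syk lay between 0.0307 and 0.214 in edgeR.

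Of the adaptors, Lcp2, the scaffold that brings Plcg1 and Vav1 together, was the more abundant. Lcp2 had 25.6, 24.1 and 27.1 CPM in the control libraries and 64.9, 86.2 and 55.9 CPM in the luteolin libraries. Its log2 fold change of 1.43 (standard error 0.20) had the smallest p of the 8 genes (adjusted p = 0.0338 in edgeR) and was 1.25 without luteolin replicate 2. An antisense transcript that overlaps 6.32% of the Lcp2 exon bases, 4930469K13Rik, had 0 counts in all 6 libraries.

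Lat, the membrane adaptor that Zap70 phosphorylates, had 1.98, 1.82 and 2.0 CPM in the control libraries and 3.95, 9.62 and 3.96 CPM in the luteolin libraries. The control libraries were nearly equal, and luteolin replicate 2 stood above the 2 other luteolin libraries. The log2 fold change of Lat was 1.60 (standard error 0.46, adjusted p = 0.131 in edgeR). It was 1.05 without luteolin replicate 2.

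Ptprc, the phosphatase gene and pan-leukocyte marker, had 46.1, 56.6 and 80.6 CPM in the control libraries and 126, 148 and 134 CPM in the luteolin libraries. Its luteolin libraries were the most even of the 7 up-regulated genes, and control replicate 3 was the control library nearest to them. The log2 fold change of Ptprc was 1.16 (standard error 0.23, adjusted p = 0.0638 in edgeR), the smallest of the 7, and was 0.96, under the study's threshold, without control replicate 1.

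Ubash3a, the inhibitor of the cascade in T cells, was the least abundant gene, with 23, 12 and 48 counts in the control libraries and 45, 209 and 88 counts in the luteolin libraries. These correspond to 0.329, 0.185 and 0.744 CPM and to 0.735, 2.50 and 1.38 CPM, so that the groups overlapped. The log2 fold change was 1.87 with a standard error of 0.74 (unadjusted p = 0.0401, adjusted p = 0.220 in edgeR). Without control replicate 3 it was 2.57 (unadjusted p = 0.0216 in edgeR). Without luteolin replicate 2 it was 1.35 with an unadjusted p of 0.128 in edgeR, and it also missed the study's threshold without control replicate 1 (unadjusted p = 0.111), control replicate 2 (0.113) or luteolin replicate 3 (0.0712).

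Plcg1, the phospholipase on which the proximal cascade converges, was the exception. It had 169, 139 and 132 CPM in the control libraries and 131, 135 and 118 CPM in the luteolin libraries, and the groups overlapped. The log2 fold change of Plcg1 was -0.20 (standard error 0.15, adjusted p = 0.530 in edgeR). It stayed between -0.27 and -0.11 with any 1 library omitted. With offsets for GC content and gene length it was -0.47 (unadjusted p = 0.0298, adjusted p = 0.117 in edgeR). Zhx3, which lies on the opposite strand and shares 4.82% of the Plcg1 exon bases, had 23.7 to 35.3 CPM and a log2 fold change of -0.37 (adjusted p = 0.268), and the counting is not stated to have used strand.

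**Figure D2:**
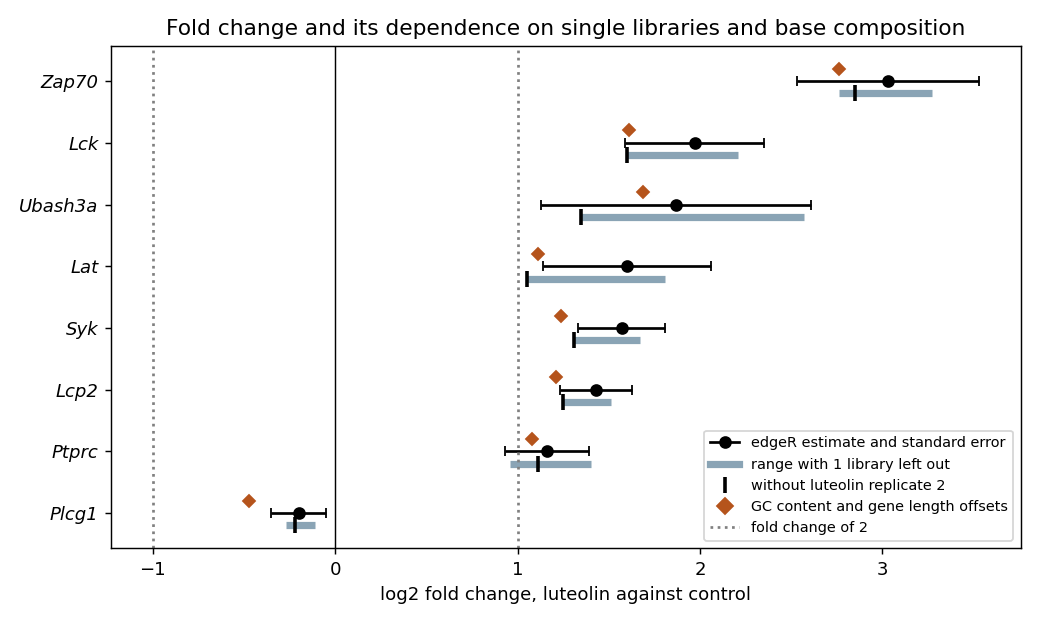
Log2 fold change of each gene in the luteolin group against the control group from edgeR (points, with the standard error), the range when 1 library is left out (bars, with a tick for the value without luteolin replicate 2) and the value with offsets for GC content and gene length (diamonds). Zap70 stands highest at 3.03, Plcg1 lies at -0.20, and the offsets place every one of the 8 genes lower, for example Lat at 1.11 and Syk at 1.24.

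Across settings, the number of the 8 genes that rose at an adjusted p under 0.05 varied. Luteolin replicate 2 had the highest level of 7 of the 8 genes, and without it the same 3 genes, Zap70, Lcp2 and Syk, had an adjusted p under 0.05 in edgeR (0.0446, 0.0296 and 0.0307). Without control replicate 1, 2 or 3 or luteolin replicate 1, 0 of the 8 genes did, nor did any other gene. In these settings 6, 6, 7 and 7 of the 8 were higher at an unadjusted p under 0.05 in edgeR's test, where 10.7%, 9.52%, 11.1% and 12.7% of all genes were. DESeq2 and limma's voom with sample quality weights each gave 6 of 8, adding Lck, Lat and Ptprc, where 9.58% and 12.6% of all genes were higher at an adjusted p under 0.05 (2.58% and 8.76% lower). The transcripts of Zap70 (59.6% GC) and Lat (57.9%) are richer in GC than most, the median of the tested genes being 50.3%, and Ptprc (42.7%) is poorer. The part of base composition in the fold changes was measured only through the offsets, under which the log2 fold change was 2.76 for Zap70, 1.69 for Ubash3a, 1.61 for Lck, 1.21 for Lcp2 and 1.08 for Ptprc.

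To see whether the genes kept pace with the leukocyte content of the tumours, each was set against Ptprc within its library, as a log2 ratio of CPM. A second set of ratios put Lck, Zap70, Lat and Ubash3a against Cd3e, a chain of the T-cell receptor complex. In all, 11 ratios were compared by an exact two-sided permutation test over the libraries, whose smallest p for 3 against 3 is 0.1, so that none could pass 0.05. Cd3e itself had a log2 fold change of 2.09 (adjusted p = 0.0831 in edgeR). The ratios carry no offset for GC content, and Ptprc (42.7% GC) is the poorest in GC of the 8 genes. In control replicates 1, 2 and 3 Spearman's rho with GC content was 0.43, -0.17 and -0.53. There the ratio of Syk to Ptprc was -0.15, -0.78 and -1.14. With the offsets the log2 fold changes were 2.76 for Zap70, 1.24 for Syk, 1.11 for Lat and 1.08 for Ptprc. The part of base composition in the ratios was not tested.

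The ratio of Zap70 to Ptprc was -5.82, -6.20 and -7.65 in the control libraries and -5.24, -4.50 and -4.54 in the luteolin libraries. All luteolin libraries lay above the control libraries, a difference of 1.80 (exact permutation p = 0.1, Benjamini-Hochberg adjusted p = 0.275 over the 11 ratios) that ranged from 1.25 to 2.17 with each library left out. For Lck the difference was 0.70, for Ubash3a 0.65, for Syk 0.35, for Lat 0.26 and for Lcp2 0.21, and for these 5 genes the groups overlapped (exact permutation p from 0.2 to 0.7). For Syk, Lat, Lcp2 and Ubash3a the difference was smaller than the SD of the ratio within the control group. The ratio of Plcg1 to Ptprc was 1.87, 1.30 and 0.72 in the control libraries and 0.06, -0.13 and -0.19 in the luteolin libraries, without overlap (exact permutation p = 0.1).

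Relative to Cd3e, Zap70 was at -1.33, -1.04 and -1.98 in the control libraries and at -0.74, -0.87 and 0.38 in the luteolin libraries. The groups did not overlap, and the difference was 1.04 (exact permutation p = 0.1, adjusted p = 0.275), between 0.64 and 1.27 with each library left out. Lat went the other way, with -0.03, 0.22 and 0.36 in the control libraries and -0.49, -0.31 and -0.16 in the luteolin libraries, a difference of -0.50 (exact permutation p = 0.1). The ratio of Lck to Cd3e had means of 1.04 ± 0.26 and 0.99 ± 0.44 (SD, n = 3 each), a difference of -0.06 (exact permutation p = 0.7). The difference for Ubash3a was -0.11 with control libraries spread from -2.89 to -1.03 (exact permutation p = 1).

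**Figure D3:**
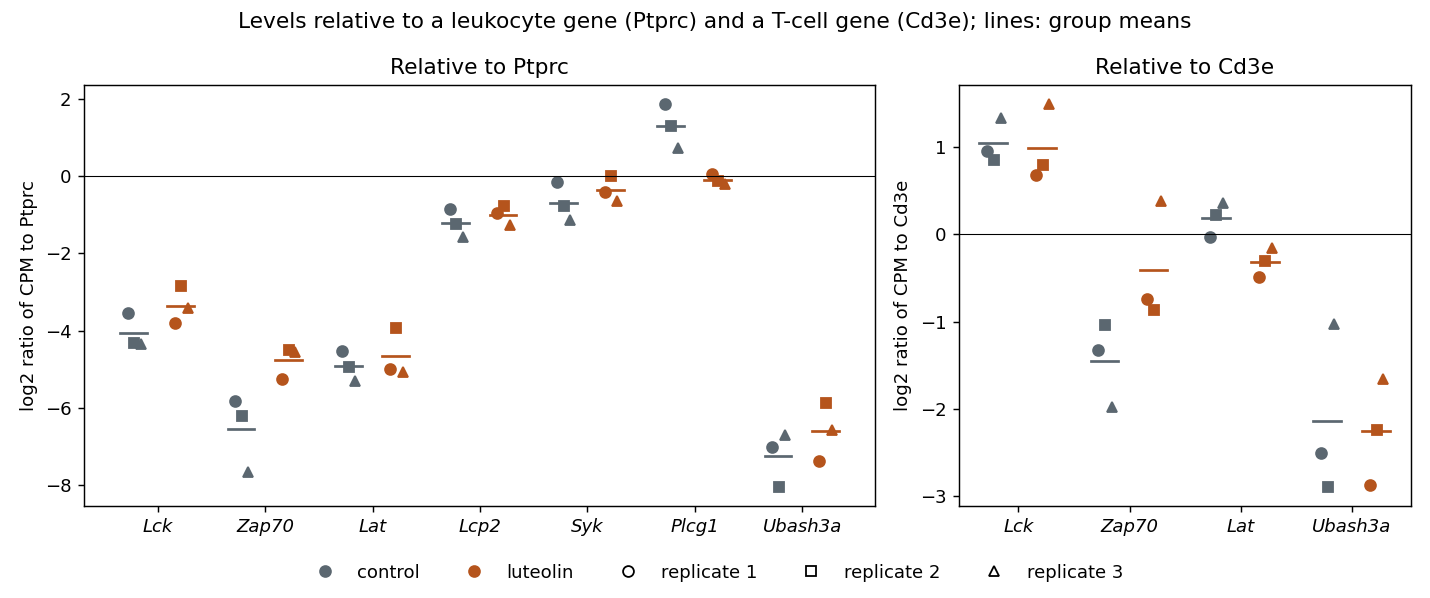
Log2 ratio of the CPM of each gene to that of Ptprc (left) and of Lck, Zap70, Lat and Ubash3a to that of Cd3e (right), with 1 point per library and a line at each group mean. Zap70 lies higher in the luteolin libraries in both panels, Plcg1 lies lower relative to Ptprc, Lat lies lower relative to Cd3e, and the other groups of points overlap. The ratios carry no offset for GC content.

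Levels were compared between genes as CPM per kilobase of the longest protein-coding transcript. In the control group the order was Plcg1 (28.7 ± 3.83), Ptprc (12.0 ± 3.48), Lcp2 (7.03 ± 0.411), Syk (6.90 ± 0.820), Lck (1.63 ± 0.294), Lat (1.57 ± 0.0779), Zap70 (0.282 ± 0.101) and Ubash3a (0.0550 ± 0.0380), each in CPM per kilobase (SD, n = 3). The ranges of Lcp2 and Syk and of Lck and Lat overlapped, and the other neighbours did not. In the luteolin group Ptprc came first (26.8 ± 2.19 CPM per kilobase), with ranges of Ptprc and Plcg1 (25.1 ± 1.79), of Plcg1 and Syk (20.5 ± 6.33) and of Syk and Lcp2 (18.9 ± 4.27) that overlapped. Lck (6.41 ± 2.73), Lat (4.73 ± 2.65), Zap70 (2.31 ± 0.744) and Ubash3a (0.201 ± 0.117 CPM per kilobase) followed, and the ranges of Lck and Lat overlapped here too. With the median length of the protein-coding transcripts in place of the longest, Plcg1 came first in both groups and Lcp2 stood above Syk in both, so the order of the genes near each other in level depends on the transcript used.

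The other genes of the pathway were examined with 5 lists by role, 59 genes in all, of which 57 passed the filter on low counts (Sit1 and Blk did not). Like the 8 genes, the lists were chosen with earlier results of these data known. At the study's threshold 24 of the 57 were up-regulated and 0 were down-regulated, where 11.3% and 1.52% of all genes were. At an adjusted p under 0.05 in edgeR 4 rose, among them Fyn, Vav1 and Inpp5d, and 0 fell, with 29 higher and 1 lower at an unadjusted p under 0.05, where 14% and 6.44% of all genes were. At an adjusted p under 0.05, DESeq2 gave 24 of 59 higher and voom 24 of 57, where 9.58% and 12.6% of all genes were. Each gave 1 lower, where 2.58% and 8.76% of all genes were. Without luteolin replicate 2, 16 of 57 listed genes were up-regulated at the study's threshold, as were 1139 genes over the whole fit. With all libraries these were 24 of 57 and 1687 of 14963.

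Of the 5 other proximal kinases on the T-cell list, 2 rose at an adjusted p under 0.05 in edgeR, where 1.34% of all genes did. Fyn, a Src-family kinase like Lck, had 11.5 ± 0.855 CPM without and 32.6 ± 8.07 CPM with luteolin (SD, n = 3 each). Fyn rose, with a log2 fold change of 1.51 (adjusted p = 0.0403 in edgeR). Tec, the founding member of the Tec kinase family, lay below the control group in every luteolin library, with 62.8, 43.6 and 53.1 CPM against 78.8, 84.9 and 81.3 CPM, a log2 fold change of -0.62 that missed the threshold (adjusted p = 0.123 in edgeR). The median of the 5 kinases was 0.17 on the log2 scale, with Txk at 0.14 and Csk, the kinase that restrains Lck, at 0.17. In the control group Csk, Tec and Txk had mean levels of 89.7, 81.6 and 16.3 CPM, and Cd3e had 1.71 CPM. The share of T cells in the levels of these kinases was not tested, so their median is not a value for T cells.

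Among the adaptors and scaffolds of T cells, 9 of 15 tested genes were up-regulated at the study's threshold and 0 down-regulated. Over all genes tested these shares were 11.3% and 1.52%. The median log2 fold change of the list was 1.57. Vav1, a guanine nucleotide exchange factor that binds Lcp2, rose, with a log2 fold change of 1.57 (adjusted p = 0.0437). Fyb, another partner of Lcp2, and the surface protein Cd6 had log2 fold changes of 1.46 and 2.19 (adjusted p = 0.0661 and 0.0659 in edgeR).

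Among the kinases and adaptors of B cells and myeloid cells, 9 of 13 tested genes were up-regulated at the study's threshold, where 11.3% of all genes were. Of the 13, 0 had an adjusted p under 0.05 in edgeR. At an unadjusted p under 0.05, 11 were higher, where 14% of all genes were. The Src-family kinases Fgr and Lyn of this list had log2 fold changes of 1.88 and 0.99 (adjusted p = 0.0828 and 0.0789 in edgeR). Plcg2, the isozyme of Plcg1 that B cells and myeloid cells use, had a log2 fold change of 1.48 (adjusted p = 0.098), and Plcg1 one of -0.20 as given above.

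Of the list of inhibitors of the cascade, 1 of 12 was up-regulated at the study's threshold, where 11.3% of all genes were, and the median log2 fold change was 0.41. The list does not hold every gene that restrains the signal, since Ubash3a (1.87) was counted among the 8 genes, and Cd5 (2.43), Lax1 (2.43) and Pag1 (1.28), given here as log2 fold changes, were counted among the adaptors and were up-regulated at the study's threshold. That gene was Inpp5d, which encodes the lipid phosphatase SHIP1 of blood cells and rose, with a log2 fold change of 1.19 (adjusted p = 0.0437). Cblb, a ubiquitin ligase that limits T-cell activation, had 36.2, 36.8 and 37.9 CPM in the control libraries and 59.1, 56.9 and 59.7 CPM in the luteolin libraries, a log2 fold change of 0.66 (adjusted p = 0.0683). Ptpn6, the phosphatase SHP-1, had a log2 fold change of 0.71 (adjusted p = 0.208).

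The 12 genes that act after Plcg1 had a median log2 fold change of 0.41, and 0 were up-regulated at an adjusted p under 0.05 in edgeR. At an unadjusted p under 0.05, 3 were higher, where 14% of all genes were. At the study's threshold 3 were up-regulated, where 11.3% of all genes were. Among them were the transcription factor gene Nfatc1 and the kinase gene Itpkb, with log2 fold changes of 1.40 and 1.49 (adjusted p = 0.120 and 0.129). With 1 library omitted, their lowest log2 fold changes were 0.89 and 0.84.

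**Figure D4:**
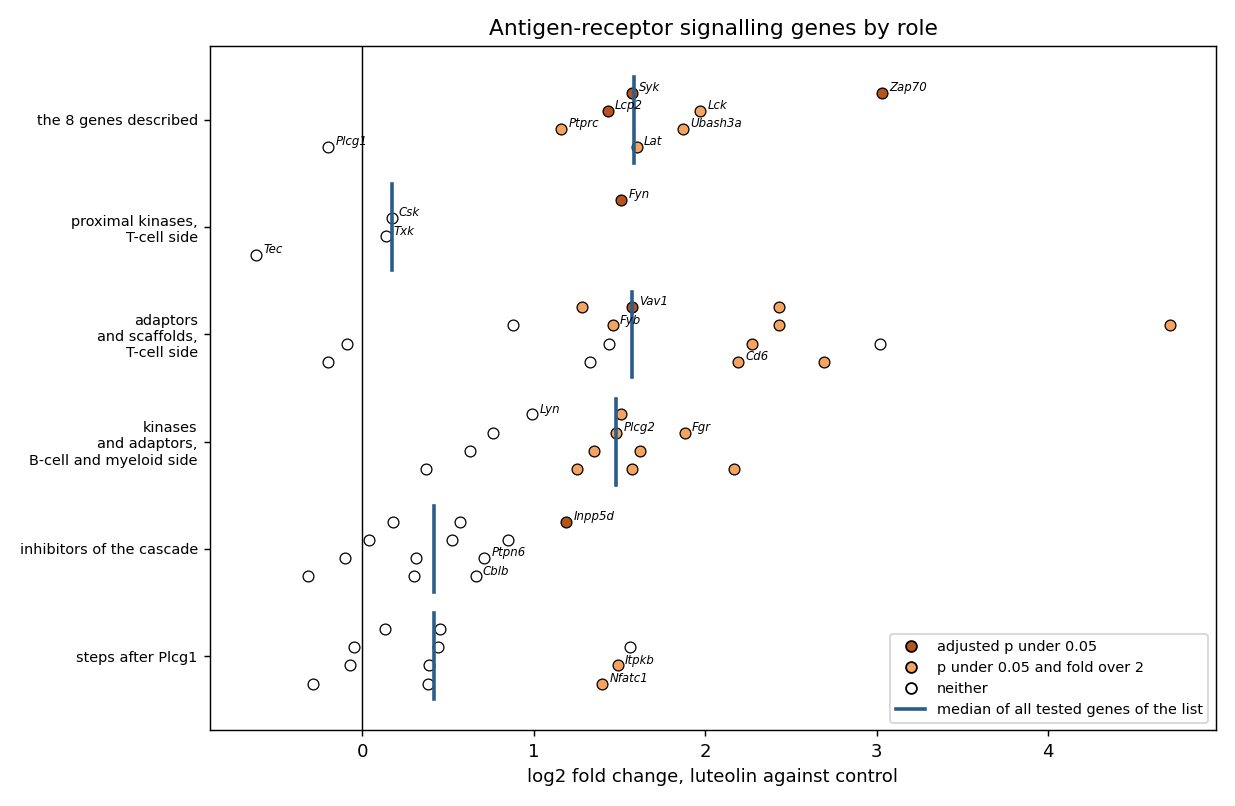
Log2 fold change (luteolin against control, edgeR) of the 8 genes and of 54 of the 57 tested genes of 5 lists by role. Each point is a gene, labelled where the text names it, except Cd5, Lax1 and Pag1, which are drawn without a label. The fill shows whether the gene passed an adjusted p under 0.05, the study's threshold or neither. A line marks the median of all tested genes of each list. The T-cell adaptors (median 1.57) and the B-cell and myeloid genes (1.48) lie about as far to the right as the 8 genes (1.58). The inhibitors and the later steps (0.41 each) lie nearer to 0. The median of the other proximal kinases on the T-cell list (0.17) lies nearest, though 2 of these 5 genes rose at an adjusted p under 0.05.

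Markers of cell types that carry these genes were compared by the same measure, a gene lying above all controls in each luteolin library, as 15.9% of all genes tested did. All 8 T-cell genes (Cd3d, Cd3e, Cd3g, Cd8a, Cd8b1, Cd4, Cd2 and Cd28) did so, and their summed level was 10.7 to 14.4 CPM without and 43.0 to 75.9 CPM with luteolin. The 7 macrophage and monocyte genes summed to 495 to 634 and to 950 to 1008 CPM, with 5 of 7 genes above all controls. The sums were 2.38 to 5.77 and 14.2 to 15.2 CPM for the NK-cell list (4 of 5 genes above, Klra8 at 0 counts in all libraries), 18.7 to 21.2 and 76.6 to 181 CPM for neutrophils (4 of 6), 7.64 to 13.8 and 28.6 to 95.0 CPM for mast cells (6 of 6), and 11.6 to 13.6 and 14.3 to 39.1 CPM for B cells (2 of 6). The platelet list summed to 12.3 to 17.9 and 18.4 to 41.0 CPM (1 of 5, with Gp6 at 0 counts). The groups overlapped for the neutrophil genes Ly6g and Retnlg (log2 fold changes of -0.57 and 0.43). They also overlapped for the platelet genes Itga2b and Ppbp (-0.03 and 0.93). Of the lists for cells that do not use the T-cell cascade, fibroblast genes summed to 1407 to 1575 and 2007 to 4958 CPM (5 of 5 above), and endothelial genes to 83.2 to 101 and 97.9 to 257 CPM (2 of 5). The hepatocyte and hepatoma list summed to 273 to 382 and 272 to 414 CPM (1 of 8 above, 1 below). The most abundant genes of these lists were Cd4, Mrc1, Klrk1, Csf3r, Mcpt4, Cd22, Pf4, Col3a1, Pecam1 and Krt18, and for the keratinocyte list Krt14. The share of each cell type in the levels of Syk, Lat, Lcp2 or Ptprc was not tested.

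For each of the 8 genes, the genes most alike in profile were found by the Pearson correlation of log2 CPM over the 6 libraries, which includes the difference between the groups and is given as a description. Zap70 was most like Mical2, Pkdcc and Bnip1 (r = 0.997, 0.995 and 0.995), and the genes most like Lck included Rhobtb1 and Slc9a8 (r = 0.997 and 0.995). Syk was most like Mfap5, Ltb4r1 and Dab2ip, and Lcp2 was most like Bgn, Tmem140 and Cfb (r from 0.998 to 0.999 for these 6 genes). Ptprc was followed most closely by Tm6sf1, Parm1 and Tfpi2 and Lat by H2-T23, Cacna2d2 and Pyroxd2. Plcg1 was most like Dhodh, Pwwp3a and Fchsd1, whose log2 fold changes were -0.23, -0.22 and -0.30, and Ubash3a, with the lowest counts, had the loosest match (Tlr1, Ntrk3 and Fbxl7, r from 0.987 to 0.992).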

How the data were processed

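Gene expression was measured by RNA-seq in 6 tumour libraries. The authors deposited 1 table with a whole number for each gene symbol in each library, not scaled between libraries. These were analysed as estimated counts, since 44.8% of the values from 1 to 40 are multiples of 4. The submitters' processing notes name bcl2fastq 2.0, HISAT2, StringTie and DESeq2 and the builds rn6 and mm39, with no role given. The labels and the study's methods name different extraction and library kits. Depth limits Ubash3a and Zap70 most.

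All 6 libraries were compared by group in R 4.3.3 with edgeR 4.0.16 (TMM, filterByExpr, quasi-likelihood test, no covariates, Benjamini-Hochberg over 14963 genes). Standard errors are the absolute log2 fold change divided by the square root of F. CPM use the TMM-normalized totals, and log2 CPM a prior count of 2. Alternatives were DESeq2 1.42.0, voom of limma 3.58.1, other normalizations and filters, offsets for GC content and length from GENCODE M21 (natural splines, 4 and 3 degrees of freedom, 14635 genes), values divided by 4, a block for the replicate number, and omitting 1 library at a time. Ratios were tested with SciPy 1.17.1. The pipeline was tested on simulated data. The genes and lists were chosen with earlier results of these data known. Named genes are the 8 genes, in each pathway list the 3 with the smallest p and any with an adjusted p under 0.05, the 3 nearest profiles per gene (without Gm and Rik symbols), and in marker lists the most abundant gene and genes at 0. Some genes that this rule names are not reported here. Others named were chosen after their values were seen. Promoters are from RefSeq (GRCm38.p6), where all 8 symbols matched.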

Additional observations from a re-analysis of the deposited data

How the results depend on the processing

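At the study's threshold, between 5 and 7 of the 8 genes were up-regulated under each of the 16 alternatives, as were 1139 to 2104 genes over the whole fit. The number of genes tested differed between these fits. In the report's setting 7 of the 8 and 1687 of 14963 genes (11.3%) were up-regulated at this threshold. Of the 128 log2 fold changes of the 8 genes under these alternatives none changed sign, Plcg1 staying between -0.49 and -0.11. The adjusted threshold was crossed 14 times by Lck, Lat or Ptprc, which gained a call, and 17 times by Zap70, Lcp2 or Syk, which lost one. The number of the 8 genes with an adjusted p under 0.05, 3 in the report (1.34% of all genes), was 6 in DESeq2 and in voom (9.58% and 12.6% of all genes). It was 5 with a minimum of 10 counts in every library, with values divided by 4 and with offsets for GC content and gene length. In these settings 345, 327 and 592 genes were higher over the whole fit, the last of 14635. The number of the 8 genes ranged from 0 to 3 with 1 library left out, where 0 to 276 genes were higher over the whole fit.

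The labels do not say whether equal replicate numbers pair the libraries. Same-numbered deviations from the group means had Pearson correlations of -0.196, -0.092 and 0.063. These cannot settle the question, since deviations that sum to 0 within each group are not independent. With the replicate number as a block, 0 of the 8 genes had an adjusted p under 0.05 in edgeR. At the study's threshold 6 of the 8 were then up-regulated, as were 1293 of the 14963 genes tested. With the block and the offsets 5 of the 8 were higher at an adjusted p under 0.05, as were 552 of 14635 genes. Over all genes the counts higher and lower at an adjusted p under 0.05, 200 and 28 in the report's setting, were 34 and 1 with the block and 552 and 166 with the block and the offsets.

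In the other settings these counts were 1543 and 415 in DESeq2, 1886 and 1311 in voom, 345 and 47 with a minimum of 10 counts, 592 and 352 with the offsets, 327 and 46 with values divided by 4, and from 0 to 276 and 0 to 36 with 1 library left out. The genes lower at the study's threshold, 227 in the report's setting, were 498 in voom, 462 with the offsets, 464 with the block and the offsets, and 140 to 305 with 1 library left out. The causes of these shifts were not tested.

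Of the 88 recomputed differences in ratio, 6 changed sign, all with 1 library left out. The ratio of Lat to Ptprc then ranged from -0.11 (without luteolin replicate 2) to 0.46, that of Lck to Cd3e from -0.31 to 0.10 and that of Ubash3a to Cd3e from -0.49 to 0.44. The lowest counts were those of Ubash3a, 12 to 209 per library, whose fold change had the largest standard error of the 8 genes.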
